A study of Mus musculus with 11 samples.

Results

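The exons described here are 3542 long alternative cassette exons of mouse N2A cells whose length is not divisible by 3, so that skipping or including one moves the reading frame downstream of it. A cassette exon is an internal exon that is either kept in or left out of the mature transcript, and its percent spliced in (PSI) is the share of informative junction reads that show it kept, in percent. Members were the cassette entries of the authors' splicing table longer than 60 nt, with a length not divisible by 3, at least 10 inclusion and exclusion reads in each of the 11 libraries, and a mean PSI in the siNT libraries above 5 and below 95. They lay in 2444 genes and were drawn from 160750 cassette entries, in a table of 401633 splicing entries of all types. The siNT PSI therefore chose the members, and the same siNT values enter every difference against siNT given below.

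N2A (Neuro-2A) is a mouse neuroblastoma line that grows in culture and is used as a neural cell model. Cells had received pools of siRNAs against Fubp1 (2 libraries), Khsrp (2), Khsrp and Fubp1 together (2, the double knockdown), Rbm38 (2) or a non-targeting pool (siNT, 3), and were harvested 48 h later. Each group was transfected with lipid reagent, all cells were of the 1 line, and a pool mixes several siRNAs against 1 transcript, so that cells with less and with no knockdown cannot be told apart in these bulk libraries. Polyadenylated RNA was sequenced from strand-specific libraries prepared for longer inserts, and the series describes the libraries as biological duplicates and triplicates.

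Fubp1 and Khsrp encode relatives of the FUBP family, proteins with KH domains that bind single-stranded nucleic acids and act on transcription, splicing and mRNA decay. Rbm38 binds RNA through an RNA recognition motif and is known from the p53 response. When an exon that breaks the frame is skipped inside a coding region, ribosomes usually meet a stop codon early, and a stop lying well before the last exon junction marks the transcript for nonsense-mediated decay (NMD). Exons of this kind are therefore known both as switches between proteins and as switches between a protein and a degraded transcript. Some exist as mutually exclusive pairs, of which a transcript keeps 1, and some are skipped together with a neighbour, which can restore the frame.

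The first set of sequences shows what skipping would do to the reading frame on paper for 8 exons on which the results below turn. Only the exon named was left out in each line. In Cnot2 and Ppp1r9a other members of the gene moved the same way, as given below. A neighbour skipped with the exon can restore the frame, so the stops shown need not arise in the cells. Joint skipping within a transcript was not tested. Each line gives the coding strand across the new junction in the GENCODE vM21 transcript (GRCm38) once the exon is left out, starting 4 codons before the codon at the junction and ending at the first stop in frame, which stands in capitals. The exons are Ppp1r9a (199 nt, chr6:5154009-5154207, plus strand, exon 15 of 18), Slc4a7 (175 nt, chr14:14762348-14762522, plus strand, exon 12 of 25), Btaf1 (115 nt, chr19:36949068-36949182, plus strand, exon 3 of 38) and Ppip5k2 (91 nt, chr1:97756844-97756934, minus strand, exon 4 of 31). The others are Abhd10 (184 nt, chr16:45740319-45740502, minus strand, exon 2 of 5), Cnot2 (80 nt, chr10:116504035-116504114, minus strand, exon 7 of 16), Gabbr1 (151 nt, chr17:37067214-37067364, plus strand, exon 15 of 23) and Mgea5 (86 nt, chr19:45762185-45762270, minus strand, exon 11 of 16).
Ppp1r9a, exon skipped: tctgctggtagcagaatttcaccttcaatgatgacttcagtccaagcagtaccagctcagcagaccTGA
Slc4a7, exon skipped: cagaggactggacgagtgcaaTAG
Btaf1, exon skipped: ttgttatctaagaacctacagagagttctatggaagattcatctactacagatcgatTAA
Ppip5k2, exon skipped: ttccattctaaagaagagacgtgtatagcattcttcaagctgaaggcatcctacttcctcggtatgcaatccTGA
Abhd10, exon skipped: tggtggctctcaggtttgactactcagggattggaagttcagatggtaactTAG
Cnot2, exon skipped: tttactgtgaacagatggcagTGA
Gabbr1, exon skipped: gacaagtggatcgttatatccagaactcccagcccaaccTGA
Mgea5, exon skipped: gtgcagtggttagcgtttgctgccaatTGA

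In these stretches the stop followed 7 codons in Slc4a7 and in Cnot2, counted from the first base shown, and 24 codons in Ppip5k2, the longest of the 8. The opposite case is the 67 nt exon of 4933427D14Rik (chr11:72191278-72191344, minus strand), a gene known by its clone name, whose exon brings a stop of its own. It is shown from the first base of the exon through that stop, in capitals.
4933427D14Rik, exon start: ttccagtcagtgagaccaTAA

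The whole exons of Btaf1, Ppip5k2 and Gabbr1 are given because they carried the 2 largest falls of the double knockdown and the largest rise of the Rbm38 knockdown.
Btaf1 exon: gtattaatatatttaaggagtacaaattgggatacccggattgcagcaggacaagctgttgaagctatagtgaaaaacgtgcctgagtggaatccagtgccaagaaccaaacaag
Ppip5k2 exon: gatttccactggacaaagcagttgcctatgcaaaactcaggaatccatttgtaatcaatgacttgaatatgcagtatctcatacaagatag
Gabbr1 exon: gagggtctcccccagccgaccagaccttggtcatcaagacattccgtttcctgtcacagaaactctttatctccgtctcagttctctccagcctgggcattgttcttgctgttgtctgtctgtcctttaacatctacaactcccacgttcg

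The last set holds 3 pairs of exons of equal length that were never found in the same annotated transcript. Capitals mark the bases at which the exons of a pair differ. The Tpm1 pair (76 nt) lies at chr9:67032466-67032541 and chr9:67031951-67032026 on the minus strand, the Dnm2 pair (139 nt) at chr9:21478899-21479037 and chr9:21480407-21480545 on the plus strand, and the Mapk14 pair (80 nt) at chr17:28737011-28737090 and chr17:28740680-28740759 on the plus strand. The exons shared 43 bases (56.6%) in Tpm1, 95 (68.3%) in Dnm2 and 39 (48.8%) in Mapk14.
Tpm1 upstream exon: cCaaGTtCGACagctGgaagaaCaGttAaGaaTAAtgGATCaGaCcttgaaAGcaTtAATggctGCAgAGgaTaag
Tpm1 downstream exon: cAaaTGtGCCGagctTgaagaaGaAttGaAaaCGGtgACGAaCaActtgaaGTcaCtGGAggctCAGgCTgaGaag
Dnm2 upstream exon: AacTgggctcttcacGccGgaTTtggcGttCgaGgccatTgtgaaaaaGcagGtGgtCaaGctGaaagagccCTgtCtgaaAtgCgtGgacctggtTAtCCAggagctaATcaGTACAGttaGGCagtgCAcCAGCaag
Dnm2 downstream exon: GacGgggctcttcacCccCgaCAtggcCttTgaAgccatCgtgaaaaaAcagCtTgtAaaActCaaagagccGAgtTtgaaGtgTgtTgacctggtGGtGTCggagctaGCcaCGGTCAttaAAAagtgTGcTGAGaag
Mapk14 upstream exon: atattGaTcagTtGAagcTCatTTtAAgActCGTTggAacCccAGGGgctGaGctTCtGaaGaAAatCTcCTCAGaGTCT
Mapk14 downstream exon: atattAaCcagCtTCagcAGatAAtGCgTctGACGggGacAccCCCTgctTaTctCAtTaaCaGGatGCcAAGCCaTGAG

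The 3542 exons had a median length of 119 nt (quartiles 89 and 163, range 61 to 8104 nt), and 1768 of them left a remainder of 1 after division by 3 while 1774 left 2. No member overlapped another, but 712 genes held more than 1, up to 8 in 1 gene, so that exons of a gene share their transcripts and are not independent. In siNT cells the median PSI was 84.5 (quartiles 40.8 and 92.1). Most were kept in most transcripts, with 1983 exons (56%) at a siNT PSI of 80 to 95, 570 (16.1%) at 50 to 80, 372 (10.5%) at 20 to 50 and 617 (17.4%) at 5 to 20. At the bounds of the rule, an exon of Wiz lay just inside at 5.01% and that of Zfp691 just outside at 4.97%, while that of Sf1 lay just inside at 94.997% and that of Mcoln1 outside at 95%.

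Of the members, 2890 (81.6%) were matched to a GENCODE exon by the lengths of the flanking introns, and the other 652 have no annotation here. Among those matched, 1875 were coding over their whole length, 274 were coding in part, 323 lay in the 5′ UTR and 1 in the 3′ UTR, 211 were found only in transcripts annotated for NMD and 206 only in other transcripts. Translation of the annotated transcript with and without the exon placed 1445 members in a class where skipping created a stop more than 50 nt before the last junction. A further 396 gave no such early stop either way, 79 gave one on inclusion, 562 lay before the coding start or held it, and 1060 could not be classed. These classes hold for the removal of 1 exon from 1 transcript, and a neighbour skipped with it can restore the frame.

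A member was covered by a median of 124 to 260 inclusion and exclusion reads per library, and the host genes had a median of 16.4 RPKM in siNT cells in the authors' deposited table, against 1.56 RPKM over the 23378 genes that the authors tested. In the authors' deposited table Fubp1 stood at 27.9 and 19.8 RPKM in the Fubp1 and double knockdowns against 180.07 RPKM in siNT, Khsrp at 8.06 and 6.77 RPKM in the Khsrp and double knockdowns against 47.0 RPKM in siNT, and Rbm38 at 4.03 RPKM in the Rbm38 knockdown against 34.5 RPKM in siNT. Khsrp also had a log2 fold change of -0.70 after Rbm38 knockdown (FDR 0.0243) in the authors' deposited table. Of 14 neuroblastoma and neuronal markers 11 reached 1 RPKM in each of the 5 groups, summing to 1119.4 to 1599.82 RPKM, with Nefl listed at 0 in 2 groups. The summed markers of glia lay at 4.15 to 6.90 RPKM per group, of fibroblasts at 0.20 to 1.41, of blood at 0.37 to 1.90 and of pluripotent cells at 0.03 to 0.17 RPKM, in the authors' deposited table. The numbers in the library titles run from 1 to 4 for siNT A, siNT B and both Fubp1 libraries and from 8 to 27 for siNT C and the other knockdowns. The labels do not say what the numbers stand for, so a fit with a term for these runs of numbers is given beside the results it touches. The comparison of the double with the Fubp1 knockdown lies wholly across the runs, where the knockdown and the runs cannot be told apart without siNT C.

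Across the knockdowns, the frame-shifting exons were most often changed where both Khsrp and Fubp1 were depleted. More of those calls were falls than rises, but 56% of the members began at a siNT PSI of 80 to 95. Such exons have little room to rise by the 10 points of a call. In the double knockdown rises outnumbered falls in each lower range of siNT PSI. With both depleted, 304 exons rose and 507 fell in PSI, and in the Fubp1 knockdown 56 rose and 152 fell. Khsrp knockdown alone was followed by 4 rises and 17 falls, and Rbm38 knockdown by 19 rises and 19 falls. In all, 876 exons (24.7%) in 695 genes were called in at least 1 of the 4 knockdowns. A call needed an adjusted p (Benjamini-Hochberg) under 0.05 in limma, fitted to log2 ratios of inclusion over exclusion reads of 60137 splicing events of all types, together with a PSI difference of at least 10 points. All 3542 members passed the read and PSI filters of that fit. The fit weighted each ratio by the precision its reads give. Without these weights limma called 8 members after Fubp1 knockdown, 615 in the double and none after Khsrp or Rbm38 knockdown, where 447 and 452 members had an unadjusted p under 0.05. Every Khsrp and Rbm38 call given below therefore rests on the weights. Of the 45 Fubp1 calls among the exons chosen for naming, 6 held without them, and of the 72 calls of the double against siNT 65 did. The 4 comparisons share the siNT libraries, so that their counts are not independent of each other.

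Against the background of the fit, the members called made up 22.9% in the double knockdown, where 7.94% of all fitted events were called, and 5.87% in the Fubp1 knockdown, where 1.42% were. The shares were 0.593% against 0.181% of all events after Khsrp knockdown and 1.07% against 0.374% after Rbm38 knockdown. Of all events 2.12% were called higher and 5.82% lower in the double knockdown, 0.394% and 1.03% in the Fubp1, 0.0482% and 0.133% in the Khsrp, and 0.248% and 0.126% in the Rbm38 knockdown. All events include many with a PSI near 0 or 100, which the rule leaves out. Among all fitted cassette exons the called share was 16.9% in the double, 3.15% in the Fubp1, 0.408% in the Khsrp and 0.83% in the Rbm38 knockdown, closer to the members' shares. By the authors' own call in their deposited table, 501 members were changed after Fubp1, 257 after Khsrp, 1043 after the double and 275 after Rbm38 knockdown, where 4.13%, 1.86%, 11.9% and 2.06% of the fitted events were. The 2471 alternative exons over 60 nt that keep the frame, chosen by the same read and PSI bounds, were called at 27.3% in the double, 9.43% in the Fubp1, 1.17% in the Khsrp and 2.35% in the Rbm38 knockdown. The frame-shifting exons were thus called at a lower share than the frame-preserving ones in each of the 4, a difference given as a description with no test. The median PSI difference over all members was 1.36 points in the double knockdown, 0.04 in the Fubp1, 0.79 in the Khsrp and 0.72 in the Rbm38 knockdown. In the double knockdown this median was above 0 while most calls were falls.

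**Figure D1:**
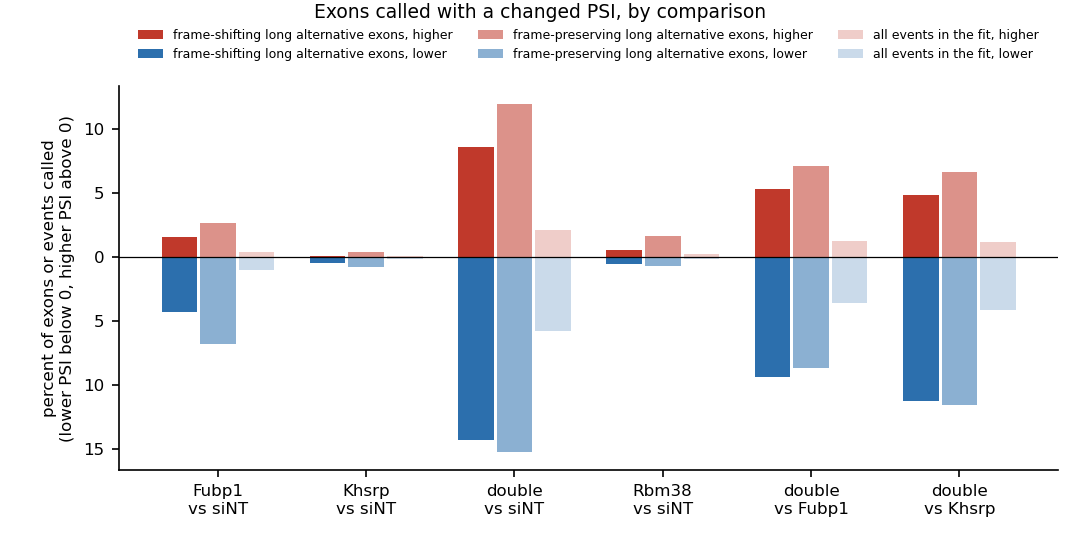
Percent of exons or events called with a higher (upward bars) or lower (downward bars) PSI in each comparison, for the 3542 frame-shifting exons, the 2471 frame-preserving exons of the same kind and all 60137 events in the fit. In the double knockdown 8.58% of the frame-shifting exons were called higher and 14.3% lower, against 2.12% and 5.82% of all events.

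With the term for the library numbers, the calls numbered 162 in the Fubp1, 8 in the Khsrp, 523 in the double and 3 in the Rbm38 knockdown. Of the exons called without the term, 134 of 208, 6 of 21, 464 of 811 and 3 of 38 were also called with it, and 208, 21, 807 and 38 kept their direction. For Khsrp the 6 were the exons of Itga6 and Nadk, both exons of Tpm1 and the Pkm2 entries described below. For Rbm38 the 3 were the exon of Gabbr1 and the same Pkm2 entries. Leaving out siNT C, the only siNT library of the later numbers, raised the Khsrp count to 77 and the Rbm38 count to 102, and gave 53 rises and 151 falls after Fubp1 knockdown.

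Direction differed with the starting level, which the siNT libraries themselves set. Of the 1983 exons at a siNT PSI of 80 to 95, 40 rose and 352 fell in the double knockdown, and 7 rose and 94 fell in the Fubp1 knockdown. Among the 617 exons at 5 to 20, 96 rose and 15 fell in the double knockdown, and 9 rose and none fell in the Fubp1 knockdown. In the range of 50 to 80, with room on both sides, 99 rose and 93 fell in the double knockdown and 24 rose and 38 fell in the Fubp1 knockdown.

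**Figure D2:**
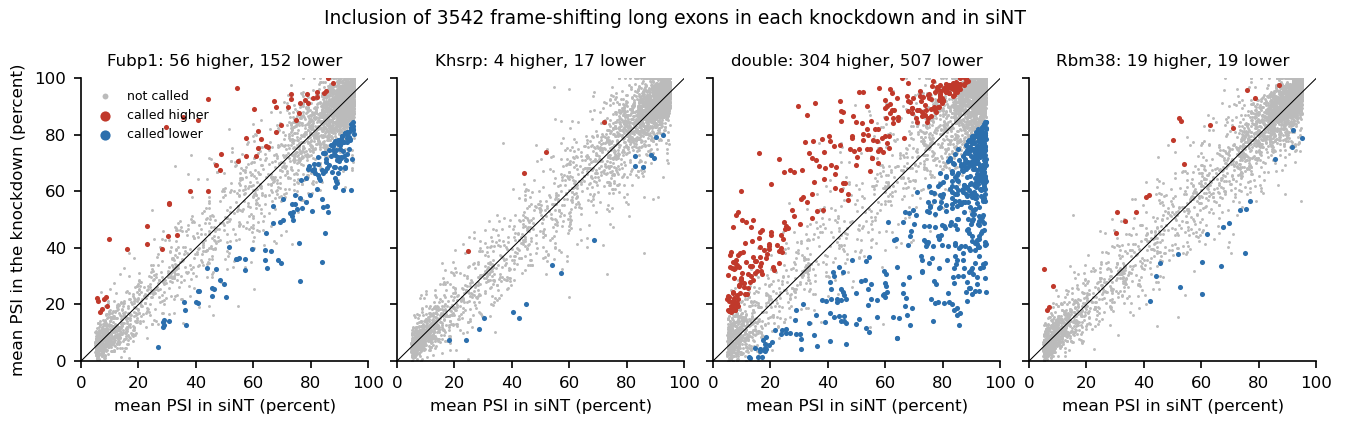
Mean PSI of each of the 3542 exons in a knockdown (vertical axis, percent) against its mean in siNT (horizontal axis, percent), with called exons coloured by direction and the line of equal PSI drawn. The cloud below the line at high siNT PSI in the double knockdown holds the 352 called falls among exons at a siNT PSI of 80 to 95.

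After Fubp1 knockdown the largest rise was in the neurite scaffold gene Ppp1r9a and the largest falls were in Tmem194b and the bicarbonate transporter gene Slc4a7. Ppp1r9a encodes neurabin-1, which binds actin filaments and protein phosphatase 1, and 3 of its exons were members. The PSI of its exon of 199 nt was 80.9 and 85.04 in the Fubp1 libraries, 31.5 and 46.1 in the Khsrp libraries, 91.6 and 88.8 in the double-knockdown libraries, 24.4 and 17.2 in the Rbm38 libraries, and 21.7, 34.9 and 32.6 in the siNT libraries. The Fubp1 and double libraries lay above all others with no overlap. The differences against siNT were 53.2 points after Fubp1 knockdown (limma, adjusted p = 1.51e-05) and 60.5 points after the double knockdown (adjusted p = 1.09e-05). Its exons of 244 nt (chr6:5134689-5134932) and 88 nt rose by 48.6 and 50.9 points after Fubp1 knockdown (adjusted p = 1.96e-06 and 6.96e-06). All 3 of these Fubp1 calls held without precision weights (adjusted p = 0.0328, 0.0224 and 0.0224). Whether the same transcripts keep or skip all 3 exons was not tested, and so neither was the reading frame that results. In the authors' deposited table the gene had a log2 fold change of 1.01 after Fubp1 knockdown (FDR 2.45e-08) and -0.12 after the double knockdown (FDR 0.696).

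Slc4a7 encodes a sodium bicarbonate cotransporter of the plasma membrane. Its exon of 175 nt was kept at 23.2 and 33.3% in the Fubp1 libraries, 86.4 and 88.4% in the Khsrp libraries, 60 and 50.8% in the double libraries, 77.1 and 79.2% in the Rbm38 libraries and 66.01, 76.3 and 86.2% in the siNT libraries. Both Fubp1 libraries were below every other library, and the double libraries lay between the Fubp1 and siNT libraries. The fall was 47.9 points after Fubp1 knockdown (limma, adjusted p = 0.000327), and the difference of -20.7 points in the double knockdown was not called (adjusted p = 0.174), though with the library-number term it was (-30.8 points, 0.0225). Without precision weights the Fubp1 call was lost (0.0656). The authors' deposited table gave Slc4a7 a log2 fold change of -1.01 after Fubp1 knockdown (FDR 4.8e-09) and -0.55 after the double (FDR 0.00237).

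The exon of 94 nt of Tmem194b, annotated only in an NMD transcript, was at 32 and 37.9% in the Fubp1 libraries and 76.9, 87.5 and 87.3% in the siNT libraries, a fall of 49.0 points (limma, adjusted p = 0.00921). Another exon of the gene (232 nt) was at 19.5 and 23.1% in the double libraries and 82.2, 93.6 and 89.4% in siNT. The groups did not overlap in either case. Ccdc138 (128 nt) fell by 34.0 points, Kctd18 (190 nt) by 33.6 and Mudeng (646 nt), which encodes a subunit of the adaptor complex AP-5, by 33.1 (adjusted p = 0.00688, 0.000124 and 0.000137). Mettl10 (217 nt) fell by 31.9 points and the transcribed pseudogene Ppp4r1l-ps (161 nt) by 34.9 (adjusted p = 0.00807 and 0.0305). The calls were lost for Tmem194b without Fubp1 A (0.172) and without Fubp1 B (0.0533), Ccdc138 without Fubp1 A (0.0617) and without Fubp1 B (0.0799), Mettl10 without Fubp1 A (0.0571) and without Fubp1 B (0.0865) and Ppp4r1l-ps in 4 of 11 omissions of 1 library (up to 0.184 without Fubp1 A), with the adjusted p in brackets.

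Among the rises after Fubp1 knockdown were exons of Ddb2, a sensor of ultraviolet damage (133 nt, 44.4 points, limma adjusted p = 0.0112), of the autophagy protease gene Atg4a (86 nt, 33.4 points, 0.000483) and of Bicd1, an adaptor of the dynein motor (76 nt, 25.1 points, 0.0196). The Ddb2 exon rested on 11 to 52 reads per library. Zeb1, a transcription factor that represses epithelial genes, had an exon of 154 nt at 54.5 and 56.9% in the Fubp1 libraries, 19.3 and 17.7% in the double libraries and 28.4, 32.4 and 31.3% in the siNT libraries. The Fubp1 libraries stood above siNT, while the double libraries stood below it. The rise of 24.98 points after Fubp1 knockdown was called (adjusted p = 0.0313), and the difference of -12.2 points in the double was not (0.109). With the term for library numbers the calls of Ddb2 (0.122), Bicd1 (0.0887) and Zeb1 (0.107) were lost. The Atg4a call held without precision weights (0.0338). Calls were also lost for Ddb2 without Fubp1 A (0.0966), for Bicd1 without Fubp1 A (0.215) and without siNT B (0.0705) and for Zeb1 in 5 of 11 omissions of 1 library (up to 0.192 without Fubp1 A).

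**Figure D3:**
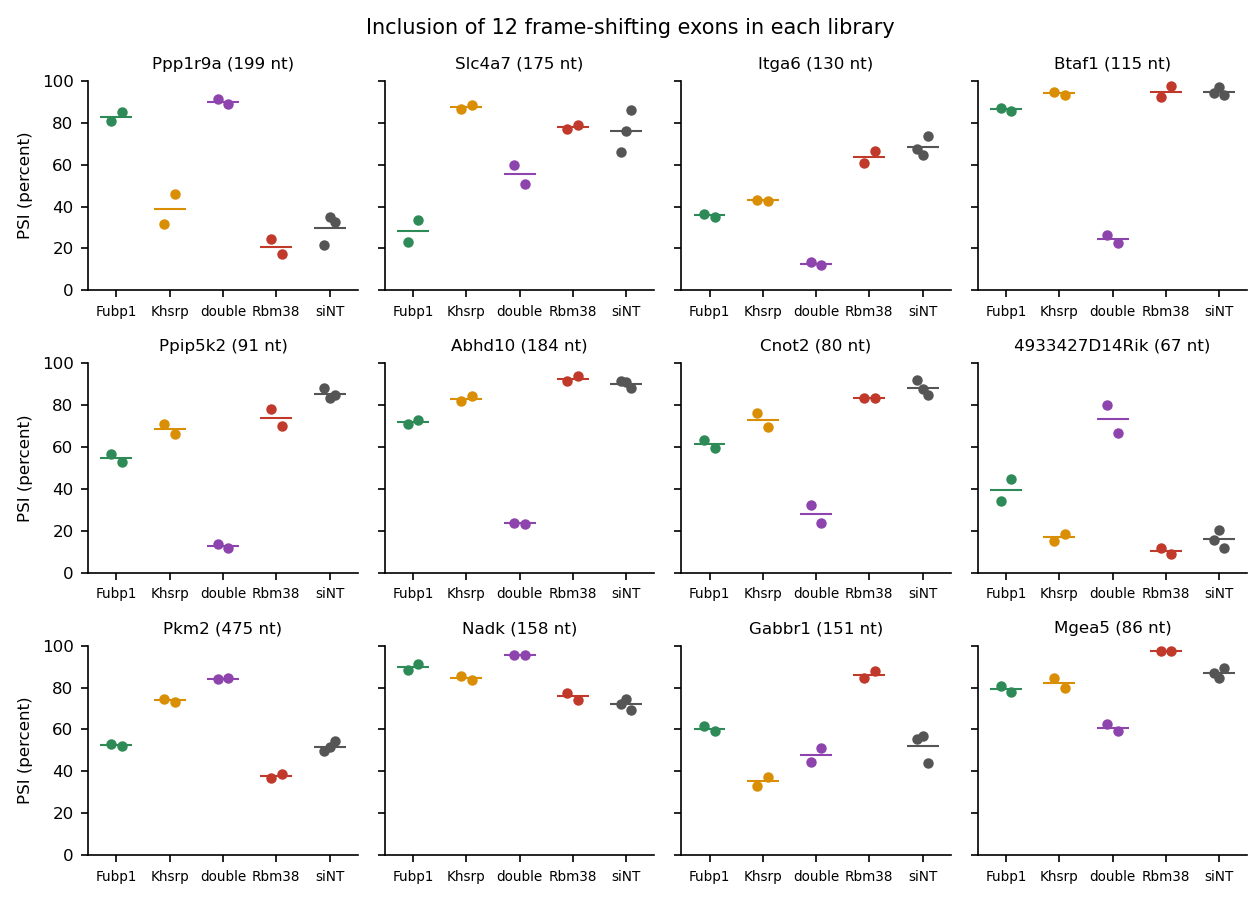
PSI (percent) of 12 exons in every library, 1 panel per exon with its length, each point a library and each bar the mean of its group. Ppp1r9a was high in the Fubp1 and double libraries, Btaf1, Ppip5k2, Abhd10 and Cnot2 were lowest in the double libraries, and Gabbr1 and Mgea5 were highest in the Rbm38 libraries.

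Khsrp knockdown alone gave 21 calls, and those that also held with the library-number term lay in Pkm2, Tpm1, Itga6 and Nadk. None held without precision weights, with adjusted p of 0.258 for the 475 nt entry of Pkm2 and for Itga6, and 0.423 for Nadk. Pkm2 is the gene of pyruvate kinase M, which carries mutually exclusive exons for the M1 and M2 enzymes. Its entry of 475 nt, which was not matched to the annotation, had a PSI of 74.8 and 73.4 in the Khsrp libraries, 83.96 and 84.4 in the double, 36.7 and 38.7 in the Rbm38, 53.2 and 51.9 in the Fubp1 and 49.6, 51.6 and 54.3 in the siNT libraries. Its exon of 167 nt, named after its values were seen, had 14.95 and 15.2% in the Khsrp, 9.71 and 9.62% in the double, 46.8 and 43.8% in the Rbm38, 30.2 and 29.5% in the Fubp1 and 31.3, 29.8 and 29.8% in the siNT libraries. The entries thus moved in opposite directions in each of 3 knockdowns, and the Rbm38 libraries lay on the other side of siNT from the Khsrp and double libraries. Whether they stand for the M1 and M2 exons was not established, since the entry of 475 nt has no annotation here. The entry of 475 nt rose by 22.3 points after Khsrp (limma, adjusted p = 9.62e-06) and 32.4 after the double knockdown (2.66e-07), and fell by 14.1 after Rbm38 knockdown (0.000366). The exon of 167 nt fell by 15.2 and 20.6 points after Khsrp and double knockdown (9.62e-06 and 1.04e-06) and rose by 14.99 after Rbm38 knockdown (1.49e-05).

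Itga6 encodes integrin alpha 6, whose exon of 130 nt near the 3′ end (chr2:71853534-71853663, exon 25 of 26) lies where the alternative cytoplasmic tails of this receptor are encoded. Its PSI was 36.4 and 35.1 in the Fubp1, 43.04 and 42.9 in the Khsrp, 13.3 and 12.2 in the double, 60.6 and 66.7 in the Rbm38 and 67.5, 64.7 and 73.6 in the siNT libraries. The values of the double libraries were below those of either single knockdown, and the single knockdowns below siNT. It fell by 32.8 points after Fubp1 (limma, adjusted p = 6.74e-05), 25.6 after Khsrp (0.00122) and 55.9 after the double knockdown (4.47e-06). The corresponding values with the library-number term were -30.3, -30.6 and -60.8 points, all called. The Khsrp call was lost without Khsrp A (0.141). In the authors' deposited table the gene had log2 fold changes of -1.54 after Fubp1 (FDR 2.23e-20), -0.44 after Khsrp (FDR 0.0429) and -1.24 after the double knockdown (FDR 5.92e-14).

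Nadk, the kinase that makes NADP from NAD, had an exon of 158 nt (chr4:155587861-155588018) that was kept in 88.3 and 91.3% in the Fubp1, 85.5 and 83.4% in the Khsrp, 95.4 and 95.8% in the double, 77.3 and 74.2% in the Rbm38 and 72.4, 74.6 and 69.2% in the siNT libraries. It rose by 17.7, 12.4 and 23.5 points in the first 3 (limma, adjusted p = 4.33e-05, 0.0159 and 2.17e-06), and its groups did not overlap with siNT there. The Khsrp call of Nadk was lost without Khsrp A (0.296) and without Khsrp B (0.0738). The exon of 76 nt of Clcn3, a chloride and proton exchanger of endosomes, rose by 14.4 points after Khsrp knockdown (0.0253) and 24.6 after the double (9.05e-05). Falls after Khsrp knockdown were called in Gas2l1 (179 nt, -27.1 points, 0.035), the homeobox gene Cux1 (836 nt, -24.7, 0.0355), Rpgr (166 nt, -17.5, 0.0304) and Arhgap33 (212 nt, -17.2, 0.033). Each of these 5 calls was lost with the library-number term, at adjusted p = 0.594, 0.271, 0.609, 0.594 and 0.57. With single libraries left out, calls were also lost for Clcn3 in 4 of 11 omissions of 1 library (up to 0.259 without Khsrp A), Gas2l1 in 8 of 11 omissions of 1 library (up to 0.529 without Khsrp A), Cux1 in 6 of 11 omissions of 1 library (up to 0.345 without Khsrp A), Rpgr in 6 of 11 omissions of 1 library (up to 0.174 without Khsrp B) and Arhgap33 in 6 of 11 omissions of 1 library (up to 0.463 without Khsrp A).

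The largest falls of the double knockdown were in exons that most siNT transcripts kept, since falls of this size are possible only from a high siNT PSI. Ppip5k2, a kinase that makes inositol pyrophosphates, had the largest fall. The PSI of its exon was 13.8 and 11.7 in the double, 56.6 and 53.1 in the Fubp1, 71.1 and 66.3 in the Khsrp, 77.97 and 70.3 in the Rbm38 and 88.3, 83.4 and 85.1 in the siNT libraries. Both single knockdowns lay between the double and siNT with no overlap, and the differences against siNT were -72.9, -30.8 and -16.9 points for the double, Fubp1 and Khsrp knockdowns (limma, adjusted p = 1.83e-07, 3.75e-05 and 0.0259). The Rbm38 libraries were below siNT too, with a difference of -11.5 points that was not called (0.07). The Khsrp call was lost with the library-number term (0.366) and in 3 of 11 omissions of 1 library (up to 0.205 without Khsrp A).

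Btaf1, an ATPase that removes the TATA-binding protein from DNA, showed another order of the groups. Its exon was kept at 26.3 and 22.7% in the double, 87.03 and 85.8% in the Fubp1, 94.8 and 93.5% in the Khsrp, 92.3 and 97.5% in the Rbm38 and 94.3, 97 and 93.4% in the siNT libraries. The double libraries stood far below all others, and the Fubp1 libraries a little below siNT. The fall was 70.4 points against siNT (limma, adjusted p = 1.82e-07), 61.9 against Fubp1 (7.01e-06) and 69.7 against Khsrp knockdown (4.86e-06). In the authors' deposited table Btaf1 had a log2 fold change of -0.95 in the double (FDR 2.41e-11), -0.25 in the Fubp1 (FDR 0.161) and -0.02 in the Khsrp knockdown (FDR 1).

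Abhd10, a mitochondrial hydrolase, had its exon at 23.9 and 23.3% in the double, 70.8 and 72.96% in the Fubp1, 82.1 and 84.2% in the Khsrp, 91.4 and 94.1% in the Rbm38 and 91.6, 90.96 and 88.01% in the siNT libraries. Falls of 66.6 and 18.3 points were called in the double and Fubp1 knockdowns (limma, adjusted p = 3.54e-08 and 0.000287), and the authors' deposited table gave log2 fold changes of -1.72 and -1.27 for the gene (FDR 7.55e-11 and 2.51e-06). Gen1, a nuclease that resolves Holliday junctions, had an exon of 122 nt, annotated only in an NMD transcript, at 18.4 and 13.8% in the double, 66.02 and 68.6% in the Fubp1 and 89.2, 85.6 and 79.96% in the siNT libraries. Its falls were 68.8 and 17.6 points (adjusted p = 4.48e-06 and 0.0197), and the Fubp1 call was lost in 3 of 11 omissions of 1 library (up to 0.163 without Fubp1 A). Mudeng fell by 68.7 points (1.4e-07), Tmem194b (232 nt) by 67.1 (3.62e-05) and Iqcb1, a cilium gene, by 65.4 (1.79e-05).

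After the Ppp1r9a exon, the largest rise of the double knockdown was in 4933427D14Rik. Its stop-bearing exon was at 80.3 and 66.7% in the double, 34.3 and 44.9% in the Fubp1, 15.3 and 18.5% in the Khsrp, 11.6 and 9.09% in the Rbm38 and 15.5, 20.4 and 11.9% in the siNT libraries. It was highest in the double libraries, next in the Fubp1 libraries, and overlapped with siNT in the Khsrp libraries. The rise was 57.5 points in the double and 23.7 in the Fubp1 knockdown (limma, adjusted p = 1.17e-05 and 0.00737), the Fubp1 call was lost with the library-number term (0.107), and the authors' deposited table gave log2 fold changes of -1.01 (FDR 5.41e-10) and -0.18 (FDR 0.465). Ggcx, the vitamin K-dependent carboxylase, had an exon of 250 nt found only in an NMD transcript, which rose by 48.4 points (0.000281). Other rises were in Atg4a (50.3 points, 6.48e-05), Eno4 (118 nt, 54.4, 0.00592), the calcium pump gene Atp2a3 (73 nt, 45.6, 0.00215), Serp2 (149 nt, 44.5, 0.000484) and Efha2 (116 nt, 44.1, 1.86e-05). The Serp2 call was lost without double A (0.119).

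The double knockdown was also compared with each single knockdown, so that the differences themselves use no siNT library, although the siNT libraries enter the fit's estimate of the spread. Against Fubp1 knockdown 189 exons were higher and 333 lower in the double, 14.7% of the members against 4.85% of all fitted events. Against Khsrp knockdown 173 were higher and 402 lower, 16.2% against 5.33%. The frame-preserving exons were called at 15.9% and 18.3%. Fits of only the groups compared gave 570 and 661 calls. Both comparisons share the double libraries. Higher and lower calls were 1.27% and 3.59% of all events against Fubp1 and 1.17% and 4.16% against Khsrp, and among all fitted cassette exons 11.2% and 12.7% were called. With the library-number term the calls against Fubp1 numbered 92, 79 of them among the 522 called without it, and those against Khsrp 632, of which 572 were among the 575.

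Named by their size against Fubp1 knockdown, exons of Zmym4, a zinc finger gene (151 nt), and Alg6, a glucosyltransferase of the N-glycan precursor (71 nt), were lower in the double by 58.8 and 55.7 points (limma, adjusted p = 8.7e-05 and 0.000104). The Zmym4 exon was at 26.7 and 21.3% in the double, 87.4 and 78.3% in the Fubp1, 75.3 and 81.4% in the Khsrp and 78.6, 89.4 and 77.4% in the siNT libraries, and both single knockdowns overlapped with siNT. The Alg6 exon was at 27.2 and 41.8% in the double, 90 and 90.3% in the Fubp1, 95.04 and 82.1% in the Khsrp and 93.3, 96.5 and 92.5% in the siNT libraries. Against Khsrp knockdown, exons of Atp11b, a flippase of endosomes (65 nt), and Iqcb1 (70 nt) were lower by 62.7 and 64.9 points (2.28e-05 and 4.39e-05). Exons of 4933427D14Rik and Ggcx were higher than after Khsrp knockdown by 56.6 and 52.6 points (0.000176 and 0.000303), and that of AI480526 by 53.3 points (0.00702), on 11 to 40 reads per library. The rises against Fubp1 in Dnase1l1 (55.9 points, 0.0231), Srrm3 (47.3, 0.0092) and Serp2 (41.8, 0.00289) rested on 12 to 54, 24 to 211 and 22 to 217 reads per library. With the library-number term the calls against Fubp1 held for Zmym4 (0.0276) and Btaf1 (0.0295) and were lost for Alg6 (0.214), Dnase1l1 (0.256), Srrm3 (0.118) and Serp2 (0.101). With 1 library left out, calls were lost for Dnase1l1 in 3 of 11 omissions of 1 library (up to 0.0925 without Fubp1 B), Srrm3 without double A (0.394), Serp2 without double A (0.199) and, against Khsrp, AI480526 without Khsrp A (0.0837) and without double A (0.19).

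Rbm38 knockdown gave its largest rise in Gabbr1, which encodes a subunit of the GABA-B receptor. The exon was at 84.4 and 87.8% in the Rbm38, 61.8 and 59.1% in the Fubp1, 33.2 and 37.3% in the Khsrp, 44.3 and 50.98% in the double and 55.7, 56.9 and 44.1% in the siNT libraries. Both Rbm38 libraries lay above all others. The rise was 33.9 points (limma, adjusted p = 0.000195), and 42.1 points with the library-number term (0.00132), and it was not called without precision weights (0.159). The authors' deposited table gave the gene a log2 fold change of 0.35 after Rbm38 knockdown (FDR 0.134). Its deposited RPKM went the other way, at 16.44 RPKM in the Rbm38 knockdown and 19.35 RPKM in siNT, so the direction of the host gene is not settled.

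Mgea5 encodes the enzyme that removes O-linked N-acetylglucosamine from proteins. Its exon was at 97.6 and 97.7% in the Rbm38, 62.5 and 59.2% in the double, 81.02 and 78.1% in the Fubp1, 84.5 and 80.1% in the Khsrp and 87.01, 84.8 and 89.4% in the siNT libraries. The Rbm38 libraries were above and the double libraries below siNT, with no overlap. The differences were 10.6 points after Rbm38 (limma, adjusted p = 0.000427) and -26.2 points after the double knockdown (2.02e-05), and with the library-number term the Rbm38 difference was 8.23 points, under the 10 points of a call, as it was at 9.43 points when siNT B was left out. In the authors' deposited table the gene stood at 77.8 RPKM in the Rbm38 knockdown, 22.1 RPKM in the double and 44.8 RPKM in siNT, and its log2 fold change was 0.91 after Rbm38 knockdown (FDR 3.38e-11) and -0.88 after the double (FDR 2.89e-10).

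Further rises after Rbm38 knockdown were called in Jakmip2 (71 nt, 32.1 points, limma adjusted p = 0.00452), Stk30 (28.0, 0.0402), Lrch3 (22.3, 0.0424), Ptplad2 (19.9, 0.00152), Scml2 (18.2, 0.0153) and the clock gene Arntl (20.4, 0.0402). Jakmip2 and Lrch3 differed the other way in the double knockdown, by -24.1 and -22.9 points (0.0111 and 0.0232). Falls were called in the synaptic adhesion gene Nrxn2 (62 nt, -36.9 points, 0.0231), Ddb2 (100 nt, -36.2, 0.0475), N4bp2 (-33.2, 0.02), Fetub (-26.5, 0.00586), Srrm3 (-25.5, 0.0342), the endocytic adaptor gene Epn1 (-20.7, 0.0309), 4931428F04Rik (-21.7, 0.00319) and AI314180 (-20.7, 0.0086). The exon of Invs had 56.1 and 9.09% in the Rbm38 libraries and 4.55, 4.35 and 6.93% in siNT, so that its call (27.3 points, 0.0298) rested on Rbm38 A, without which the difference was 3.81 points. None of the Rbm38 calls named here after Mgea5 held with the library-number term. Most of them were also lost when 1 library was left out: Nrxn2 in 3 of 11 omissions of 1 library (up to 0.154 without Rbm38 A), Jakmip2 without Rbm38 A (0.0668), Ddb2 in 8 of 11 omissions of 1 library (up to 0.324 without Rbm38 B), N4bp2 without Rbm38 A (0.108) and without Rbm38 B (0.274), Stk30 in 10 of 11 omissions of 1 library (up to 0.549 without Rbm38 B), Fetub without Rbm38 A (0.0698) and without Rbm38 B (0.0641) and Scml2 in 3 of 11 omissions of 1 library (up to 0.0771 without siNT A). The same held for Srrm3 in 5 of 11 omissions of 1 library (up to 0.691 without Rbm38 B), Lrch3 in 10 of 11 omissions of 1 library (up to 0.255 without Rbm38 A), Arntl in 8 of 11 omissions of 1 library (up to 0.209 without Rbm38 B), Epn1 in 5 of 11 omissions of 1 library (up to 0.593 without Rbm38 B), AI314180 without Rbm38 B (0.386) and Invs in 4 of 11 omissions of 1 library (up to 0.765 without Rbm38 A).

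The host genes were grouped by lists of functions, whose counts stand against the 5.87% of all members called after Fubp1 knockdown and the 22.9% in the double. Of 29 exons in 20 genes of the cytoskeleton and neurite list, 7 rose and 1 fell after Fubp1 knockdown, at a median difference of 3.4 points against 0.04 over all members, and 7 rose and 5 fell in the double, at 4.4 points against 1.36, called shares of 27.6% and 41.4%. Of its exons 3 lie in Ppp1r9a, and all 3 were among the rises after Fubp1 knockdown. The exons counted are thus not independent, and these shares rest on fewer genes than exons. Of 47 exons in 30 genes of the centrosome and cell cycle list, none rose and 3 fell after Fubp1 knockdown, at a median of -0.23 points against 0.04, and 3 rose and 9 fell in the double, at a median of -1.93 points against 1.36, shares of 6.38% and 25.5% that lie near those of all members. Pcm1 organises the pericentriolar material, and its exon of 173 nt was at 45.99 and 40.2% in the double, 80.01 and 77.6% in the Fubp1 and 90.8, 92.5 and 94.7% in the siNT libraries. Neither knockdown overlapped with siNT, and the falls were 49.6 and 13.9 points (limma, adjusted p = 4.7e-08 and 7.19e-05). Ttk, a kinase of the spindle checkpoint, had its exon of 154 nt at 64.6 and 62.99% in the double and 95.5, 95.8 and 93.7% in the siNT libraries, a fall of 31.2 points (2.28e-07). The authors' deposited table gave Pcm1 and Ttk log2 fold changes of -1.94 and -1.57 in the double (FDR 1.55e-24 and 6.98e-25).

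Of 61 exons in 49 genes of splicing factors and RNA-binding proteins, 6 rose and 10 fell in the double knockdown, at a median difference of -0.23 points against 1.36 over all members, and 1 rose and 2 fell after Fubp1 knockdown, at -0.71 against 0.04. The called shares of 26.2% and 4.92% were near those of all members. Hnrnpr, an hnRNP protein, had its exon of 169 nt at 15.8 and 16.3% in the double, 35.2 and 33.8% in the Fubp1 and 44.3, 45.5 and 42.3% in the siNT libraries, and fell by 28.0 points in the double (limma, adjusted p = 3.54e-08). Prpf39, a protein tied to the U1 snRNP, had its exon of 347 nt at 50.01 and 49.3% and its exon of 163 nt at 73.8 and 73.7% in the double libraries, against 90.9, 87.3 and 92.6% and 33.9, 33.2 and 33.5% in siNT. The first lay below siNT and the second above it, with differences of -40.6 and 40.2 points (1.49e-07 and 9.56e-06). Hnrnpa2b1 had its exon of 73 nt higher by 28.3 points in the double (9.56e-06). In the 39 exons of 27 endosome and trafficking genes, 6 rose and 9 fell in the double, at a median of -1.42 points against 1.36, and 2 rose and 5 fell after Fubp1 knockdown, at -1.37 against 0.04, shares of 38.5% and 17.9%.

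Of 49 exons in 32 chromatin genes, 4 rose and 6 fell in the double, at a median of 0.22 points against 1.36, and 1 rose and 2 fell after Fubp1 knockdown, at -0.14 against 0.04, shares of 20.4% and 6.12% near those of all members. Cbx5 encodes heterochromatin protein 1 alpha, and its 5′ UTR exon of 100 nt was at 20.1 and 24.3% in the Fubp1, 6.39 and 7.09% in the Khsrp, 19.5 and 25.9% in the double, 3.64 and 3.09% in the Rbm38 and 4.60, 6.72 and 5.62% in the siNT libraries. The Fubp1 and double libraries formed a group well above the others. The rise was 16.5 points after Fubp1 and 17.1 after the double knockdown (limma, adjusted p = 6.26e-06 and 3.05e-06), and in the authors' deposited table the gene had log2 fold changes of -1.05 and -1.19 (FDR 3.4e-14 and 4.56e-18). Bptf, a subunit of the NURF remodelling complex, had an exon of 191 nt at 4.04 and 6.11% in the Fubp1, 11.6 and 8.29% in the double and 20.6, 31.7 and 28.1% in the siNT libraries, with falls of 21.7 and 16.8 points (0.000243 and 0.00258). Of 34 exons in 22 kinase and signalling genes, 1 rose and 4 fell in the double, at a median of -0.03 points against 1.36, a share of 14.7%. Ppp3cb, a catalytic subunit of calcineurin, had its exon of 125 nt at 60.3 and 61.3% in the double and 96.01, 94.2 and 93.97% in the siNT libraries, a fall of 33.9 points (1.46e-07). Of 9 exons in 6 genes of NMD and exon junction factors, 1 rose and 1 fell in the double, at a median of 4.71 points against 1.36, and none was called against siNT in the other knockdowns. The rise was in Rnps1 (122 nt, 14.8 points, 3.08e-05).

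Some frame-shifting exons work as pairs. In the mutually exclusive pair of Tpm1, which encodes the actin filament protein tropomyosin, the upstream exon was at 59.9 and 60.2% in the Fubp1, 66.8 and 66.1% in the Khsrp, 76.6 and 76.6% in the double, 33.7 and 26.5% in the Rbm38 and 47.3, 43.2 and 41.9% in the siNT libraries. The downstream exon was at 35.04 and 37.3%, 34.99 and 33.1%, 24.9 and 25.8% and 67.3 and 72.1% in the same knockdowns and 50.9, 55.3 and 55.8% in siNT. In each library the values of the pair summed to 94.9 to 102.4. The upstream exon rose by 15.9, 22.3 and 32.4 points in the Fubp1, Khsrp and double knockdowns (limma, adjusted p = 0.000967, 0.00093 and 1.96e-07) and fell by 14.1 in the Rbm38 knockdown (0.00783). The Rbm38 call was lost with the library-number term (0.263), and the Khsrp call without Khsrp A (0.119).

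Dnm2 encodes dynamin-2, which pinches off endocytic vesicles. Its upstream exon was at 36.1 and 28.1% in the Fubp1, 23 and 39.1% in the Khsrp, 16.2 and 14.7% in the double, 69.4 and 55.3% in the Rbm38 and 58.2, 58.5 and 54.9% in the siNT libraries, with sums of the pair of 95.5 to 109.1. The double libraries were lowest and neither single knockdown overlapped with siNT. The falls were 25.1, 26.1 and 41.7 points in the Fubp1, Khsrp and double knockdowns (limma, adjusted p = 0.00629, 0.0391 and 0.000123), and the downstream exon rose by 24.5 and 37.9 points after Fubp1 and double knockdown (0.00266 and 0.000113). The Khsrp call was lost with the library-number term (0.515) and in 8 of 11 omissions of 1 library (up to 0.577 without Khsrp A). Mapk14 encodes the p38 alpha kinase, and its upstream exon was at 74.2 and 71.1% in the Fubp1, 83.7 and 80.3% in the double and 55.95, 54.5 and 61.4% in the siNT libraries. It rose by 15.4 and 24.7 points (0.006 and 4.64e-05), while its downstream partner fell by 16.02 and 23.6 (0.00528 and 0.000126). Skipping 1 exon of such a pair alone would break the frame, but the exchange of exons of equal length leaves it unchanged.

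**Figure D4:**
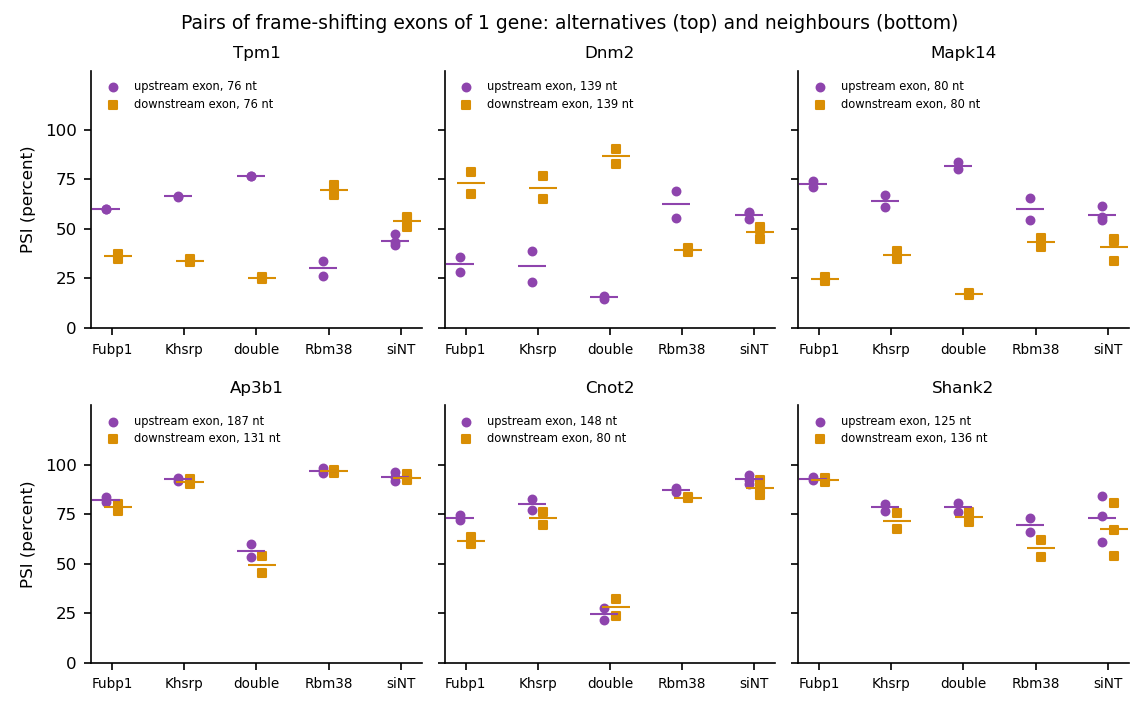
PSI (percent) in every library for the exons of 6 genes, upstream exon as circles and downstream exon as squares, with short bars for the group means. In the upper row (Tpm1, Dnm2, Mapk14) the exons of a pair mirror each other, and in the lower row (Ap3b1, Cnot2, Shank2) they move together. The pairs are chosen examples, and the Cnot2 exons have another exon between them in the matched transcript.

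Members that neighbour each other were counted as well. There were 356 pairs of matched members that directly followed each other in an annotated transcript of the gene, in 290 genes. In 220 of the pairs (61.8%) the lengths summed to a multiple of 3, so that skipping both keeps the frame in such a transcript. In the double knockdown 75 of these 220 pairs held a called exon. In 35 of them both exons were called the same way, none in opposite directions, and in 40 only the first or only the second exon was called. Of the 136 pairs whose sum is not a multiple of 3, 50 held a called exon, with 22 called the same way and 2 in opposite directions. In 26 only the first or only the second exon was called. In the Fubp1 knockdown the pairs with a call numbered 27 and 16, and both exons were called the same way in 11 and 3 of them. In the other 16 and 13 only the first or only the second exon was called. Whether pairs that keep the frame differ from the others was not tested.

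Ap3b1 encodes a subunit of the adaptor complex AP-3. Its neighbouring exons of 187 and 131 nt sum to 318 nt. The first was at 59.9 and 53.4% in the double, 83.6 and 80.98% in the Fubp1 and 94, 96.5 and 91.5% in the siNT libraries, and the second at 53.8 and 45.3%, 80.2 and 76.8% and 92.6, 95.5 and 92.3%. Both fell together, by 37.4 and 44.0 points in the double (limma, adjusted p = 2.58e-06 and 3.96e-07) and by 11.7 and 14.98 in the Fubp1 knockdown (0.00358 and 0.000486). Cnot2 is a subunit of the CCR4-NOT deadenylase, and its exons of 148 and 80 nt, exons 5 and 7 of the matched transcript, sum to 228 nt. By these numbers another exon lies between them in that transcript. If they alone were skipped, the exon between them would be read in a shifted frame. The exon of 148 nt was at 27.4 and 21.8% in the double, 74.5 and 71.9% in the Fubp1 and 95.01, 92.4 and 90.3% in the siNT libraries. That of 80 nt was at 32.3 and 23.8%, 63.6 and 59.8% and 92.3, 87.9 and 84.7%. The falls in the double were 68.0 and 60.2 points (1.26e-08 and 1.2e-07). Shank2, a scaffold of excitatory synapses, had neighbours of 125 and 136 nt (sum 261 nt) that rose by 19.8 and 24.9 points after Fubp1 knockdown (0.00746 and 0.00383), with the siNT libraries spread over 84.1, 73.97 and 61.1% and 80.6, 67.2 and 54.03%. The call of the first was lost without Fubp1 A (0.0766) and without Fubp1 B (0.064).

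The change of the host gene's level was set beside the call of the exon, with the authors' deposited log2 fold changes of each knockdown against siNT. In bulk RNA a lower level per cell and fewer expressing cells cannot be told apart, and PSI and level came from the same libraries. Among members whose skipping creates an early stop, 65 exons called lower after Fubp1 knockdown lay in 58 host genes with a median log2 fold change of -0.23. The authors' deposited table marks 2 of these genes higher and 22 lower (37.9%) at an FDR under 0.05, where 12.0% and 10.5% of all tested genes were higher and lower. The 20 exons called higher lay in 17 genes with a median of 0.24, 5 of them marked higher and 1 lower, and the exons not called lay in 1085 genes with a median of 0.04, 227 of them marked higher (20.9%) and 190 lower (17.5%).

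In the double knockdown the 243 exons of this class called lower lay in 202 host genes with a median log2 fold change of -0.44 in the authors' deposited table, 18 marked higher and 107 lower (53.0%), where 13.2% and 13.7% of all tested genes were. Genes of the 72 exons called higher numbered 66, with a median of 0.44, of which 28 were higher (42.4%) and 7 lower. Genes of the exons not called numbered 908, with a median of 0.01, of which 187 were higher and 209 lower. Across the 1442 exons of the class with a tested host, the PSI difference and the host's log2 fold change had a Spearman rho of 0.27 after Fubp1 and 0.34 after the double knockdown, given as a description since exons share host genes and libraries. The values after Khsrp and Rbm38 knockdown were 0.10 and 0.14. Over the 1503 frame-preserving exons that gave no early stop either way, rho was 0.10 after Fubp1, 0.06 after Khsrp, 0.21 after the double and 0.01 after Rbm38 knockdown. A gene with several members can stand in more than 1 of these groups.

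The frame-preserving exons that gave no early stop either way were read in the same manner. After Fubp1 knockdown the 119 called lower lay in 112 genes with a median log2 fold change of 0.11 in the authors' deposited table, 28 marked higher and 20 lower (17.9%), against 16.1% lower among the 1137 genes of those not called. The 43 called higher lay in 43 genes with a median of 0.33, 16 marked higher (37.2%) and 3 lower. Among genes of those not called 25.2% were higher. In the double knockdown the 278 called lower lay in 242 genes with a median of -0.33, 18 higher and 110 lower (45.5%), and the 164 called higher lay in 155 genes with a median of -0.06, 31 higher and 38 lower. Of the 933 genes of those not called 28.8% were lower. Lower host levels beside skipped exons were thus also found in the double knockdown where skipping keeps the frame. Higher hosts beside called rises after Fubp1 knockdown were likewise found outside the class with a stop on skipping. Among members with no early stop either way, rises lay in 11 genes (median 0.44, 6 marked higher and 1 lower). Rises of members before the coding start lay in 9 genes (median 0.75, 6 marked higher and 1 lower). No test of the difference between the classes was made. The 13 exons called higher in the double that bring a stop on inclusion lay in 13 genes with a median of -0.18, none marked higher and 4 lower (30.8%). The 63 genes of exons of this class not called had a median of -0.08, 14 marked higher and 15 lower (23.8%), a share near that of the called ones. The 3 exons called lower lay in 3 genes, none marked higher and 1 lower.

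**Figure D5:**
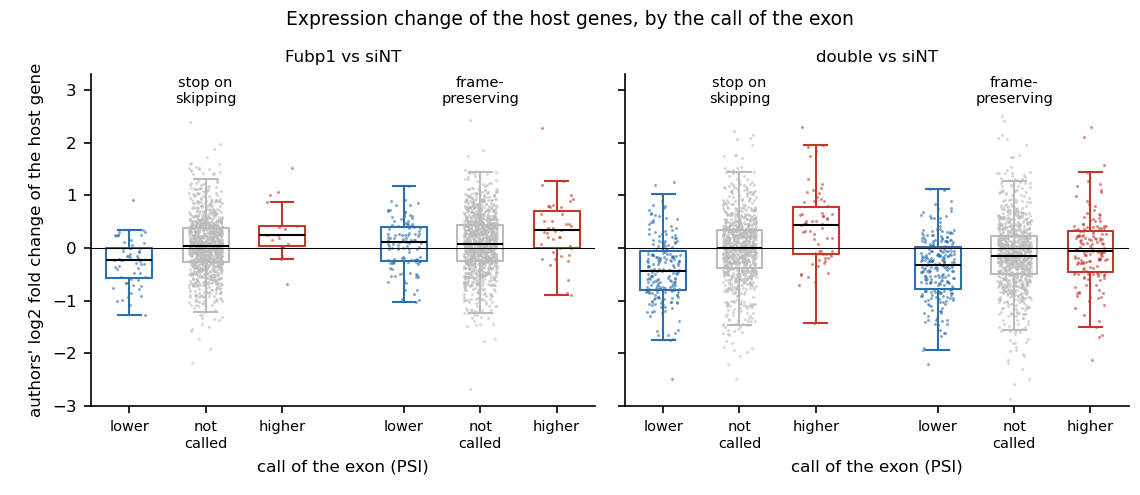
The authors' log2 fold change of the host genes (vertical axis) by the call of the exon, for exons whose skipping creates an early stop and for frame-preserving exons without one, after Fubp1 (left) and double knockdown (right). Points are host genes, boxes quartiles and the line the median; 3 points lie beyond the axis. For exons with a stop on skipping the medians run from -0.44 (called lower) to 0.44 (called higher) in the double knockdown.

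RNA levels of NMD factors and of transcripts known as NMD substrates were read in the authors' deposited table. NMD activity was not measured, and other influences on these levels were not separated. Of 28 NMD and exon junction genes, 6 were marked higher and 7 lower after Fubp1 knockdown, none higher and 2 lower after Khsrp, 1 higher and 7 lower after the double, and 2 higher and 8 lower after Rbm38 knockdown. Of all genes tested there, 12.0% were higher and 10.5% lower after Fubp1 knockdown, and 13.2% and 13.7% after the double. The shares were 3.82% and 4.34% after Khsrp knockdown, and 7.96% and 7.02% after Rbm38 knockdown. Upf2, a core NMD factor, stood at 10.9 RPKM in the double and 24.1 RPKM in siNT in the authors' deposited table, at a log2 fold change of -1.11 (FDR 8.68e-13). Of 16 tested transcripts known as NMD substrates, none was higher and 7 were lower after Fubp1 knockdown, while 6 were higher and none lower after the double, among them the host RNA of snoRNAs Zfas1 at 442.6 RPKM against 150.2 RPKM in siNT in the authors' deposited table. After Khsrp knockdown 2 of these 16 were higher and 1 lower, and after Rbm38 knockdown 1 was higher and 1 lower. Both lists thus held marked genes in each of the 4 knockdowns. The part of these changes in the PSI differences was not tested.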

How the data were processed

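RNA of 11 N2A libraries in 5 groups was used, with groups taken from the labels; both Fubp1 library columns end in the letter A and were told apart by their library numbers. Per the submitters' processing notes, mm10, Salmon 0.14.1 and edgeR (no version given) were used; the splicing table has the layout of vast-tools, and its version and the build of its coordinates are not given in the sources used here. Per library and splicing event, the authors deposited a percent (PSI), with corrected inclusion and exclusion reads in a quality field, and a group PSI (a score that slightly passes 100) with a True or False call per knockdown. The authors also deposited 1 RPKM value per gene and group, log2 fold changes of each knockdown over siNT, and p-values with FDR. No column of values was left without a sample (0 columns).

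Inclusion and exclusion reads gave log2 ratios with a pseudocount of 0.5. Events with 10 reads in every library and a mean PSI of 1 to 99 (60137) were fitted over all 11 libraries with limma 3.58.1 in R 4.3.3, with precision weights, and p-values were Benjamini-Hochberg adjusted over all of them. The deposited PSI matched the value recomputed from the reads within 0.05 points. Exons were matched by length and flanking introns to GENCODE vM21, since the deposited coordinates are of another numbering than GRCm38. Median reads per member and library were 124 to 260; corrected reads carry counting error only in part. Libraries are described as biological replicates, and no 2 libraries were alike (correlations of log odds 0.921 to 0.968).

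The members, the gene lists and the tests were chosen with earlier results of these data known. Exons named with values were the 8 largest called rises and 8 largest called falls per knockdown without overlap with siNT, 3 each way for the double against a single knockdown, up to 4 called exons per gene list, up to 6 called the same way in the Fubp1, Khsrp and double knockdowns, and up to 4 per knockdown by the host's log2 fold change. Other pseudocounts, read minimums, PSI bounds, weights, a library-number term, a replicate block, smaller fits and the omission of each library were tried.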

Additional observations from a re-analysis of the deposited data

How the results depend on the processing

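The counts of called exons depended on the settings most where they were small. None of the calls named by their size changed sign, while of all called exons 807 of 811 in the double against siNT and 516 of 522 in the double against Fubp1 kept their direction with the library-number term. Without precision weights the calls numbered 8 for Fubp1, 0 for Khsrp, 615 for the double and 0 for Rbm38 against siNT, and 143 and 372 for the double against Fubp1 and Khsrp; limma without weights still gave 447 exons for Khsrp and 452 for Rbm38 at an unadjusted p under 0.05. Without the filter on mean PSI the counts were 66, 2, 552, 5, 253 and 290 in the same order. The library-number term gave 162, 8, 523, 3, 92 and 632. Fits of only the groups compared gave 9 for Khsrp and 11 for Rbm38. A bound of 15 points gave 122 for Fubp1. The authors' own calls covered 501, 257 and 275 members for Fubp1, Khsrp and Rbm38. Members at a siNT PSI of 10 to 90 gave 537, 335 and 356 for the double against siNT, Fubp1 and Khsrp. Leaving out 1 library gave 112 to 212 for Fubp1, 3 to 77 for Khsrp, 543 to 843 for the double, 17 to 102 for Rbm38, 264 to 565 for the double against Fubp1 and 302 to 633 against Khsrp. The Khsrp count was 3 without Khsrp A and 77 without siNT C, the Rbm38 count 17 without Rbm38 B and 102 without siNT C, and the Fubp1 count 112 without Fubp1 B. The causes were not tested. Reads per exon limit what small differences can be detected.

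With the letter as a replicate block, in which siNT C has no partner and adds nothing, the counts were 214 for Fubp1, 86 for Khsrp, 852 for the double, 99 for Rbm38, 592 for the double against Fubp1 and 675 against Khsrp. Deviations of libraries with the same letter had correlations of -0.062 to 0.058 between groups, so the letters did not pair the libraries.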
